A study of Mus musculus with 6 samples.

Results

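The mitochondrial chromosome transcripts are the genes whose deposited name starts with mt-, which picked 37 of the 78298 genes of the table without using any measured value. They are 13 protein genes, 2 ribosomal RNA (rRNA) genes and 22 transfer RNA (tRNA) genes, and 28 of them are read from the forward strand and 9 from the reverse strand of the 16299-base circular chromosome (GRCm39 chrM).

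RENCA is a mouse renal adenocarcinoma line, and bulk RNA sequencing compared 3 oe-AQP1 samples with 3 oe-NC samples. The oe-AQP1 cells carried a lentiviral vector that expresses the mouse Aqp1 coding sequence (a water channel) from a ubiquitin C promoter, and the oe-NC cells carried the empty vector. Puromycin (2 μg/mL) was added 48 hours after transduction in both groups and kept for 14 days, and all samples bear a single batch label. The labels call the samples biological replicates but do not say whether they came from separate transductions, so the p-values measure the spread between these samples.

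Mitochondrial DNA is transcribed from both strands into long RNAs that run through many genes, and the tRNAs that lie between most genes are cut out to free the messenger RNAs (mRNAs) and rRNAs. The mRNAs encode core subunits of respiratory complexes I, III and IV and of the ATP synthase, complex V, while all other subunits and the whole transcription and RNA processing machinery come from nuclear genes. Copies of mitochondrial DNA are also found in nuclear chromosomes, and reads from an identical stretch cannot be assigned to either place by sequence.

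Of the 13 protein genes here, 6 have a nuclear copy that both matches in sequence and has counts. Alignment of each gene to the GENCODE M39 transcripts gave 19 nuclear genes that matched a mitochondrial gene over at least 100 bases at 90% identity or more. Of these, 7 had a mean of at least 10 counts, and all 7 lie between bases 24651488 and 24655278 of chromosome 1 (GRCm39), in 3791 bases. Gm28661, Gm28437, Atp6-ps and Gm10222 are identical over their matched length to mt-Co2, mt-Co3, mt-Atp6 and mt-Nd4l. Gm28438 and Gm71269 match mt-Nd3 at 99.7% identity, and Gm29216 matches the last 483 bases of mt-Co1 at 99.8%. The other 12 matching genes had means of at most 1.58 counts.

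The lines that follow show the only base by which Gm28438 and mt-Nd3, and Gm29216 and mt-Co1, differ within their match, with that base in capitals. The substitutions are T3C and A1066T, written with the mitochondrial base first, the position counted from 1 at the first base of the mitochondrial gene, and the copy's base last.
mt-Nd3, chrM:9459-9486, forward strand: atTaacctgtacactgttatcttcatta
Gm28438, chr1:24652173-24652200, reverse strand: atCaacctgtacactgttatcttcatta
mt-Co1, chrM:6390-6418, forward strand: ggaAttgttttatccaactcatcccttga
Gm29216, chr1:24655241-24655269, reverse strand: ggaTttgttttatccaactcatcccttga

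Neighbouring mitochondrial genes also touch or overlap. The border between both rRNA genes is shown because their counts moved unlike each other: the capitals are the 69-base tRNA gene mt-Tv, with 30 bases of mt-Rnr1 before it and 30 of mt-Rnr2 after it.
mt-Rnr1 to mt-Rnr2, chrM:995-1123, forward strand: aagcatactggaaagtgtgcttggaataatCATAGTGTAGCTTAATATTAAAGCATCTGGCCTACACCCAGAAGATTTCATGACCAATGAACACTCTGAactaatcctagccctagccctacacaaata

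The next stretches are shown because reads within the capitals fit 2 genes. In the first, mt-Atp8 and mt-Atp6 share 43 bases of the same strand. In the second, the end of mt-Nd5 and the end of mt-Nd6, which is read from the other strand, share 14 bases. Whether the libraries or the counting kept the strand is not given in the sources used here, so reads from mt-Nd6 and reads antisense to it cannot be told apart.
mt-Atp8 to mt-Atp6, chrM:7897-7999, forward strand: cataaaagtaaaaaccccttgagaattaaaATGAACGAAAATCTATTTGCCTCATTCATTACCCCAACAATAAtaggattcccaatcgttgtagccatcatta
mt-Nd5 to mt-Nd6, chrM:13522-13595, forward strand: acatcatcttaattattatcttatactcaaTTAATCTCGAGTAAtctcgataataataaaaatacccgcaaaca

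The samples held 18385714 to 21920899 counts each. Aqp1 counts were 7713, 8545 and 7838 with oe-AQP1 and 41, 25 and 45 with oe-NC, a log2 fold change of 7.70 (SE 0.16), so the labels matched the gene put in. Sample 1 of oe-NC stood apart from samples 2 and 3 of its group, with a chi-square per gene of 8.76 and 10.1 against 1.71 to 1.99 for every other pair within a group. Of 11 renal tubule markers, 9 had at least 10 counts in every sample, Epcam was at 0 in all samples and Slc34a1 had at most 1 count. The renal markers summed to 851 to 884 CPM (counts per 1000000 counts) in oe-AQP1 against 1040 to 1150 in oe-NC, and the leukocyte markers to 59.0 to 62.2 and 69.4 to 71.3 CPM with Adgre1 at 0. The fibroblast markers summed to 56.6 to 58.7 and 51.6 to 65.7 CPM, and the endothelial ones, with Kdr at 0, to 1.01 to 1.73 and 0.93 to 1.45 CPM. Members of a list did not move alike. Among fibroblast markers the log2 fold change was -0.73 (SE 0.14) for Col1a1 and 0.34 (SE 0.06) for Pdgfrb. Among leukocyte markers it was -1.51 (SE 0.13) for Csf1r, -0.52 (SE 0.07) for Lyz2, -0.16 (SE 0.08) for Cd14 and 0.15 (SE 0.06) for Cd68. Dcn and Pdgfra had at most 1 count and Ptprc at most 3.

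Mitochondrial mRNAs were lower and the small rRNA was higher in oe-AQP1 cells. The 13 protein genes took 1.59%, 1.59% and 1.63% of all counts with oe-AQP1 against 2.34%, 2.95% and 2.97% with oe-NC. The groups did not overlap, and the low value of oe-NC came from its sample 1. The 2 rRNA genes took 0.125%, 0.123% and 0.132% in oe-AQP1 against 0.0232%, 0.0281% and 0.0292% in oe-NC. In bulk RNA, fewer cells of a type and less RNA per cell cannot be told apart.

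In the limma-voom fit over all genes (false discovery rate, FDR, under 0.05), 2 of the 15 tested mitochondrial genes were higher in oe-AQP1 and 10 were lower, beside 16.0% higher and 16.6% lower among all 15522 genes tested. Of these, 1 higher and 7 lower genes also passed an absolute log2 fold change of 1, beside 4.39% and 0.844% of all genes (5.23% in either direction). The median log2 fold change of the 13 protein genes was -1.01, beside 0.00 for all genes. With the counts of the chromosome 1 copies added to the genes they match, all 13 protein genes were lower, from -1.85 to -0.46 with a median of -0.83, beside 16.6% of all genes, and 6 of them passed the fold threshold, beside 0.831% (5.22% in either direction). Those directions are relative to all genes. Another limma-voom fit set the library size to the summed mitochondrial mRNA as deposited, which moved the median of all genes to 0.79. In that fit mt-Co1 (0.27), mt-Co2 (0.58), mt-Co3 (0.87, SE 0.38, FDR 0.0451) and mt-Nd6 (0.31) were higher in oe-AQP1. There mt-Atp6 (0.05, FDR 0.782) and mt-Nd5 (0.01, FDR 0.884) did not pass. The values of mt-Co2, mt-Co3 and mt-Atp6 in that fit leave out their copies, and this scale was not fitted with copies added. Relative to all genes with copies added, mt-Co3 was at -0.83, and the share of mitochondrial mRNA in all counts had a log2 ratio of -0.73.

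**Figure D1:**
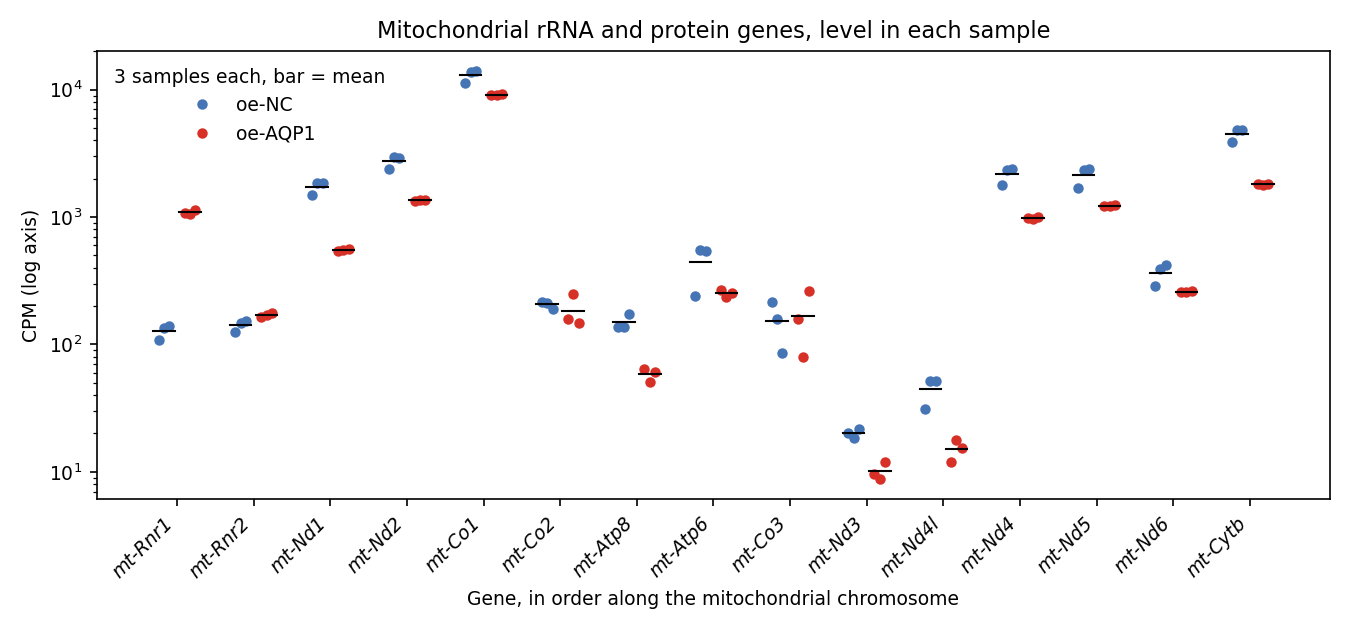
Level of each rRNA and protein gene in CPM (log axis) in the 3 oe-NC (blue) and 3 oe-AQP1 (red) samples, with genes in order along the chromosome and black bars at the group means. mt-Rnr1 lay near 128 CPM in oe-NC and near 1090 in oe-AQP1, and the groups overlapped for mt-Co2, mt-Atp6 and mt-Co3.

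mt-Rnr1, the rRNA of the small mitochondrial ribosomal subunit (ENSMUSG00000064337, chrM:70-1024), gave the largest difference of the 15 genes. Its counts were 21446, 23278 and 23439 with oe-AQP1 and 2114, 2472 and 2992 with oe-NC. The groups lay far apart, at 1090 ± 41.6 and 128 ± 17.6 CPM (mean ± SD, n = 3 each). It was 8.61-fold higher, a log2 fold change of 3.11 (SE 0.08, FDR 6.14e-10 by limma-voom). Leaving out any sample gave 2.99 to 3.18.

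mt-Rnr2, the rRNA of the large subunit (ENSMUSG00000064339, chrM:1094-2675), lies right after mt-Tv and moved far less. It had 3250, 3760 and 3620 counts in oe-AQP1 and 2474, 2690 and 3251 in oe-NC. Its CPM did not overlap between the groups, at 170 ± 5.86 against 142 ± 14.0, and the log2 fold change was 0.27 (SE 0.07, FDR 0.0108 by limma-voom). Without sample 3 of oe-AQP1 it was 0.24 and no longer passed (FDR 0.0559).

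The ratio of mt-Rnr1 to mt-Rnr2 counts was 6.60, 6.19 and 6.47 in the oe-AQP1 samples and 0.854, 0.919 and 0.920 in the oe-NC samples. This ratio lies within a sample, so no scaling between samples enters it. Both rRNAs together came to 7.87%, 7.77% and 8.13% of the mitochondrial mRNA counts in oe-AQP1, but 0.989%, 0.953% and 0.984% in oe-NC. mt-Rnr2 alone came to 1.04%, 1.08% and 1.09% of the mRNA counts, against 0.533%, 0.497% and 0.512%. Each of these ratios was higher in all 3 oe-AQP1 samples than in any oe-NC sample.

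Of nuclear RNAs that carry no long poly(A) tail, 4 genes picked after the mt-Rnr1 values were seen were also higher, beside 16.0% of all genes; they are not a full list of such RNAs. Rn18s-rs5, a gene of the small cytosolic rRNA, had 27541, 36692 and 32546 counts in oe-AQP1 and 15812, 14458 and 16239 in oe-NC. Its log2 fold change was 0.98 (SE 0.06, FDR 9.14e-07 by limma-voom). Rn7sk, the RNA that holds back the elongation factor P-TEFb, had 97, 153 and 108 counts against 55, 47 and 54, a log2 fold change of 1.10 (SE 0.18, FDR 0.00101). Rn7s1 and Rn7s2, RNAs of the signal recognition particle with identical counts in every sample, were each at 0.84 (SE 0.16, FDR 0.00298). Whether RNA was selected by poly(A) is not given in the sources used here, and whether that step bears on the mt-Rnr1 values was not tested.

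**Figure D2:**
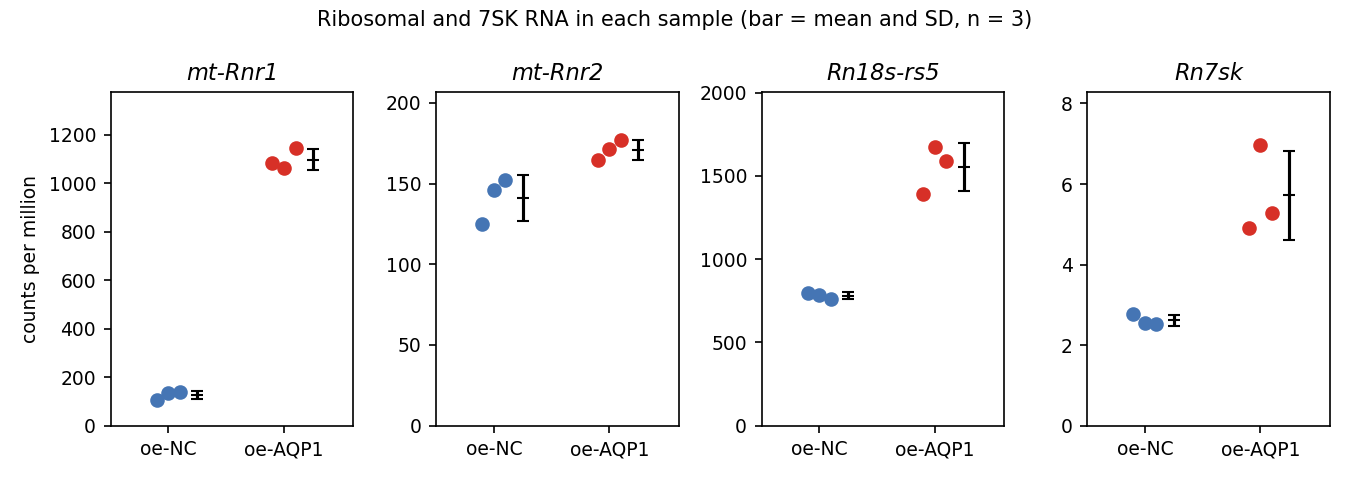
CPM of all counts for both mitochondrial rRNAs, Rn18s-rs5 and Rn7sk in each sample of oe-NC (blue) and oe-AQP1 (red), with the mean and SD of 3 samples beside them and every axis starting at 0. In all 4 panels each oe-AQP1 sample lies above each oe-NC sample. The fold change fitted by limma-voom is 8.61 for mt-Rnr1, 1.20 for mt-Rnr2, 1.97 for Rn18s-rs5 and 2.14 for Rn7sk.

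All 7 mitochondrial genes of complex I, the NADH dehydrogenase that passes electrons to ubiquinone, fell (beside 16.6% of all genes lower). Of these, 5 passed the fold threshold as deposited and 4 with copies added, beside 0.844% and 0.831% of all genes. As deposited, mt-Nd2 and mt-Nd3 lay near that threshold. With each sample left out they ranged from -1.11 to -0.96 and from -1.13 to -0.91. When the mitochondrial mRNA sum sets the scale, mt-Nd6 turns to 0.31 (FDR 0.0122) and mt-Nd5, at 0.01 (FDR 0.884), does not pass. mt-Nd1 (ENSMUSG00000064341, chrM:2751-3707) had 10749, 12112 and 11512 counts in oe-AQP1 and 29160, 33690 and 39282 in oe-NC. At 551 ± 8.15 against 1720 ± 206 CPM it was 3.11-fold lower, a log2 fold change of -1.64 (SE 0.08, FDR 9.47e-08 by limma-voom). The groups were separated by more than their whole range.

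mt-Nd2 (ENSMUSG00000064345, chrM:3914-4951) had 26427, 29871 and 27991 counts in oe-AQP1 and 46398, 53721 and 61890 in oe-NC. Its log2 fold change was -1.01 (SE 0.07, FDR 3.06e-06 by limma-voom), with no overlap of the groups. mt-Nd4 (ENSMUSG00000064363, chrM:10167-11544) had 19453, 21349 and 20668 counts against 34835, 43042 and 50428. It was 2.18-fold lower, at -1.12 on the log2 scale (SE 0.09, FDR 1.17e-05). Gm28439 on chromosome 1 is identical to the first 876 bases of mt-Nd4 and was listed at 0 in all 6 samples.

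mt-Nd5 (ENSMUSG00000064367, chrM:11742-13565), the longest protein gene, had 24276, 26801 and 25653 counts in oe-AQP1 and 32946, 42765 and 50389 in oe-NC. It fell less than mt-Nd4 beside it, with a log2 fold change of -0.77 (SE 0.11, FDR 4.38e-04 by limma-voom) and no overlap of the groups. The difference between the changes of neighbouring genes was not tested.

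The 2 short genes of complex I, mt-Nd3 (ENSMUSG00000064360, chrM:9459-9806) and mt-Nd4l (ENSMUSG00000065947, chrM:9877-10173), share reads with chromosome 1 copies. mt-Nd3 was deposited with 190, 193 and 243 counts in oe-AQP1 and 396, 335 and 460 in oe-NC, a log2 fold change of -1.01 (SE 0.11, FDR 8.33e-05). With its copies added it had 3310, 3560 and 3681 counts against 4303, 5007 and 5789, and fell by 0.58 on the log2 scale (SE 0.08, FDR 3.55e-04). mt-Nd4l was deposited with 234, 392 and 315 counts against 610, 948 and 1107, at -1.56 (SE 0.22, FDR 4.66e-04). With its copy added it had 1152, 1106 and 1170 counts against 3181, 3752 and 4986. The sum was 3.61-fold lower in oe-AQP1, a log2 fold change of -1.85 (SE 0.12, FDR 1.81e-06), the largest fall of the 13 protein genes on that scale.

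mt-Nd6 (ENSMUSG00000064368, chrM:13552-14070) is the one protein gene of the reverse strand. It had 5132, 5634 and 5391 counts in oe-AQP1 and 5601, 7157 and 9027 in oe-NC. In CPM, 259 ± 3.00 and 367 ± 72.3, the groups did not overlap, and the log2 fold change was -0.48 (SE 0.12, FDR 0.0106 by limma-voom). With each sample left out it ranged from -0.65 to -0.37, both from leaving out an oe-NC sample. The 12 forward-strand protein genes had a median of -1.01 as deposited and -0.92 with copies added.

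Set against the forward strand, mt-Nd6 came to 1.66%, 1.64% and 1.65% of the forward-strand mRNA counts in oe-AQP1, against 1.22%, 1.34% and 1.44% in oe-NC. Its share was therefore higher in oe-AQP1 while its level relative to all genes was lower. With copies added the shares were 1.11 ± 0.0059% and 0.929 ± 0.078% (mean ± SD, n = 3 each), again without overlap.

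mt-Cytb (ENSMUSG00000064370, chrM:14145-15288) encodes cytochrome b, the one mitochondrial subunit of complex III, which passes electrons from ubiquinol to cytochrome c. It had 36045, 39603 and 37527 counts in oe-AQP1 and 76253, 87708 and 102897 in oe-NC. At 1820 ± 13.4 against 4500 ± 536 CPM (mean ± SD, n = 3 each) it was 2.47-fold lower. The log2 fold change was -1.30 (SE 0.07, FDR 4.41e-07 by limma-voom), and the groups did not come near each other.

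Complex IV, cytochrome c oxidase, has its 3 core subunits encoded here, and 1 of the 3 was called as deposited against 3 of 3 with copies added (16.6% of all genes lower in both fits). mt-Co1 (ENSMUSG00000064351, chrM:5328-6872), the subunit that reduces oxygen, was the most abundant of the 37 genes. It had 178351, 198724 and 188432 counts in oe-AQP1 and 221779, 252984 and 297973 in oe-NC. It fell by 0.52 on the log2 scale (SE 0.07, FDR 2.65e-04 by limma-voom), without overlap of the groups, although on the scale of mitochondrial mRNA it was at 0.27.

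mt-Co2 (ENSMUSG00000064354, chrM:7013-7696), which takes electrons from cytochrome c, was deposited with 3109, 5436 and 3033 counts in oe-AQP1 and 4237, 3898 and 4081 in oe-NC. Those groups overlapped, and the log2 fold change of -0.20 (SE 0.16, FDR 0.359) did not pass. With Gm28661 added it had 60759, 67033 and 63153 counts against 74131, 85792 and 101913. The sum fell by 0.52 on the log2 scale (SE 0.07, FDR 4.53e-04 by limma-voom), and its CPM did not overlap between groups.

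mt-Co3 (ENSMUSG00000064358, chrM:8607-9390) was deposited with 3153, 1763 and 5435 counts in oe-AQP1 and 4235, 2872 and 1813 in oe-NC. The samples of a group differed by more than the groups did, at 0.08 on the log2 scale (SE 0.41, FDR 0.907), and leaving out a sample moved this value from -0.33 to 0.54. With Gm28437 added it had 41784, 47054 and 44517 counts against 65191, 74959 and 86479. The sum was 1.78-fold lower in oe-AQP1, a log2 fold change of -0.83 (SE 0.07, FDR 9.64e-06 by limma-voom), and the groups no longer overlapped.

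Of complex V, mt-Atp8 was called as deposited and both genes with copies added. mt-Atp8 (ENSMUSG00000064356, chrM:7766-7969) had 1267, 1120 and 1241 counts in oe-AQP1 and 2709, 2511 and 3710 in oe-NC. It fell by 1.36 on the log2 scale (SE 0.11, FDR 5.89e-06 by limma-voom), without overlap of the groups.

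mt-Atp6 (ENSMUSG00000064357, chrM:7927-8607), part of the proton path of the enzyme, was deposited with 5284, 5149 and 5190 counts in oe-AQP1 and 4737, 10144 and 11439 in oe-NC. In CPM, sample 1 of oe-NC lay within the range of the oe-AQP1 samples, and the log2 fold change of -0.73 (SE 0.26, FDR 0.0563) did not pass. Without that sample it was -1.12 (FDR 4.76e-16 by limma-voom), whereas without sample 2 of oe-NC it was -0.53 (FDR 0.172) and without sample 3 -0.54 (FDR 0.163). With Atp6-ps added all samples entered without overlap, at 39190, 44530 and 42193 counts against 57767, 69009 and 79431, a log2 fold change of -0.78 (SE 0.08, FDR 4.75e-05).

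**Figure D3:**
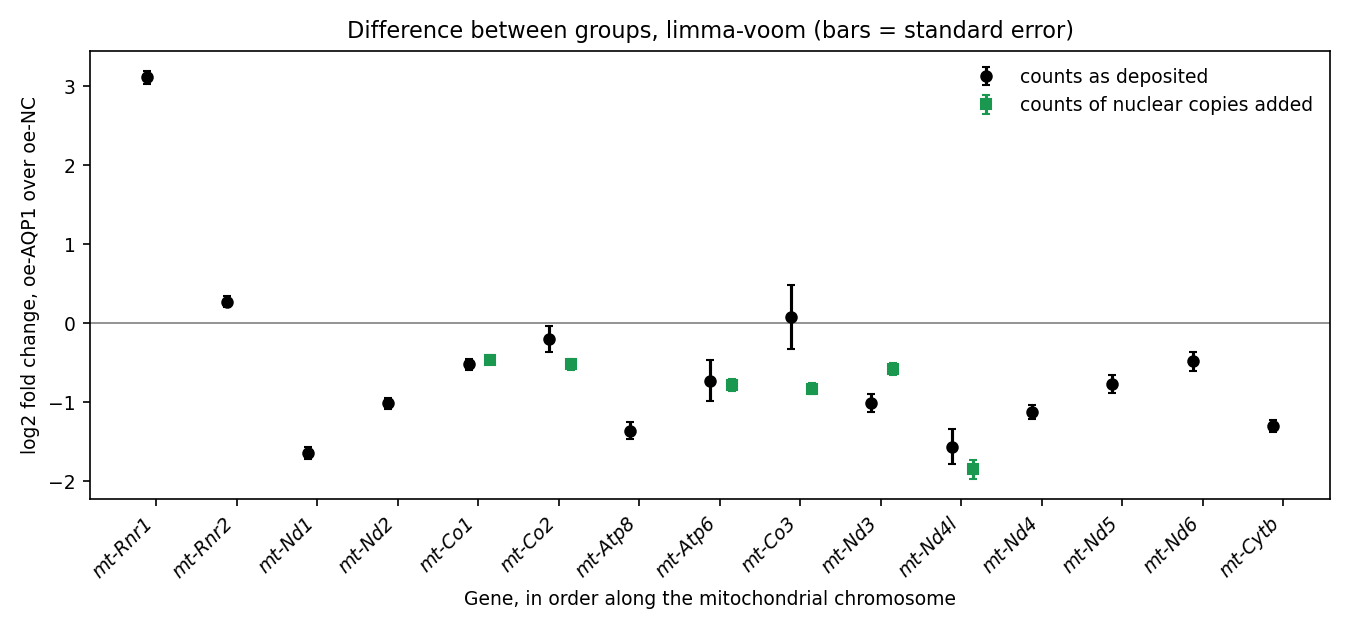
Log2 fold change of oe-AQP1 over oe-NC for each of the 15 tested genes, in order along the chromosome, with standard errors, from counts as deposited (black circles) and, for the 6 genes with counted chromosome 1 copies, with the copies' counts added (green squares). mt-Rnr1 stands at 3.11, and with copies added all 13 protein genes lie between -1.85 and -0.46. With the scale set by mitochondrial mRNA as deposited, without the copies, mt-Co1, mt-Co2, mt-Co3 (SE 0.38) and mt-Nd6 are higher in oe-AQP1. On that scale mt-Atp6 (0.05) and mt-Nd5 (0.01) do not pass, and it was not fitted with copies added.

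Whole and fractional counts followed the copies. Of the 13 protein genes, 6 had whole counts in all 6 samples, mt-Nd2 had a fractional count in 1 sample (53721.43 in sample 2 of oe-NC), and the 6 genes with counted copies were fractional in all samples. All 6 genes with whole counts were lower in oe-AQP1 (median -1.21), against 4 of the 7 with a fractional count (median -0.73), beside 16.6% of all genes. With copies added, all 7 of the latter were lower (median -0.78).

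For these 6 genes, 0 of the 36 counts deposited for the mitochondrial gene lay within 0.02 of a whole number, whereas 33 of the 36 sums of gene and copies did. Most counts of mt-Co2, mt-Co3, mt-Atp6, mt-Nd3 and mt-Nd4l stood on the chromosome 1 gene. The mitochondrial gene held 2.10% to 12.2% of the sum for mt-Co3, at most 8.11% for mt-Co2 and 5.43% to 9.21% for mt-Nd3. For mt-Atp6 it held 8.20% to 14.7%, and for mt-Nd4l 19.2% to 35.5%. The split varied between samples of a group for each of these 5 genes, and the groups' ranges met for mt-Co2, mt-Co3, mt-Atp6 and mt-Nd4l.

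For mt-Co1, whose copy covers part of the gene, the mitochondrial gene held 91.1% to 91.9% of the sum in oe-AQP1, against 94.8% to 95.7% in oe-NC. Gm29216 had 17410, 17402 and 16525 counts in oe-AQP1 and 12087, 11301 and 13704 in oe-NC, a log2 fold change of 0.40 (SE 0.04, FDR 8.02e-05 by limma-voom), opposite in sign to mt-Co1. Gm71269, a long noncoding RNA gene over the mt-Nd3 copy, was also higher, at 0.63 (SE 0.11, FDR 0.00155). The other 5 copies were lower, from -1.96 for Gm10222 to -0.54 for Gm28661. With Gm29216 added, mt-Co1 fell by 0.46 on the log2 scale (SE 0.06, FDR 4.16e-04).

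**Figure D4:**
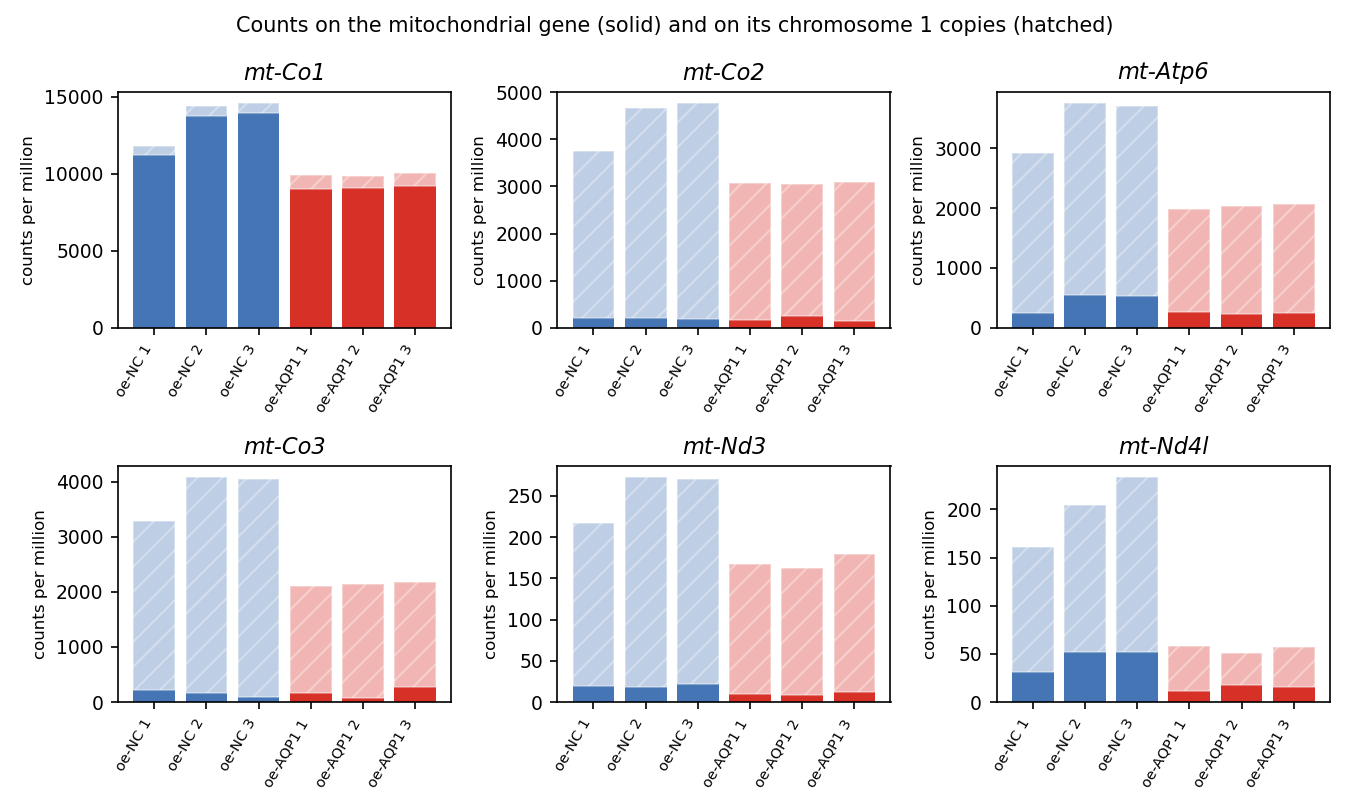
CPM of all counts in each sample of oe-NC (blue) and oe-AQP1 (red) for the 6 protein genes with counted copies, split into the mitochondrial gene (solid) and its chromosome 1 copies (hatched), with bars starting at 0. The mitochondrial gene held at most 12.2% of the mt-Co3 sum but at least 91.1% of the mt-Co1 sum, and every summed bar is lower in oe-AQP1 than in oe-NC.

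The complexes did not keep their shares of mitochondrial mRNA. Complex I genes made up 27.6%, 27.7% and 27.6% of the mRNA counts in oe-AQP1 and 32.3%, 33.5% and 33.5% in oe-NC. Complex III made up 11.5%, 11.4% and 11.3% against 16.4%, 16.2% and 16.2%. Both shares were lower in every oe-AQP1 sample than in any oe-NC sample.

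Complex IV went the other way, with 58.9%, 59.1% and 59.2% of the mRNA counts in oe-AQP1 against 49.6%, 47.9% and 47.9% in oe-NC. mt-Co1 alone held 56.9 ± 0.22% and 47.2 ± 0.58% (mean ± SD, n = 3 each), and with copies added 41.9 ± 0.11% and 34.5 ± 0.49%. The 3 genes did not move alike. Relative to all genes with copies added, mt-Co1 was at -0.46, mt-Co2 at -0.52 and mt-Co3 at -0.83 on the log2 scale. The share of mitochondrial mRNA in all counts had a log2 ratio of -0.73 there. Complex V overlapped between the groups as deposited (1.94 ± 0.14% and 2.11 ± 0.44%), and with copies added it was 8.80 ± 0.096% and 9.16 ± 0.086% without overlap. With copies added the other shares were 19.5 ± 0.093% against 24.1 ± 0.56% for complex I, 7.70 ± 0.044% against 11.4 ± 0.062% for complex III and 64.0 ± 0.13% against 55.3 ± 0.57% for complex IV.

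Per length (CPM per kb, copies added where counted), the order of levels in oe-NC began with mt-Co1 at 8840 ± 983, mt-Co2 at 6460 ± 813, mt-Atp6 at 5110 ± 686, mt-Co3 at 4880 ± 559 and mt-Cytb at 3940 ± 469. From mt-Co2 to mt-Cytb, neighbours in this order differed by less than the sum of both SDs. Those SDs are between samples and include the low sample 1 of oe-NC, and within each oe-NC sample these genes kept this order. mt-Nd2 followed at 2640, mt-Nd1 at 1800, mt-Nd4 at 1570 and mt-Nd5 at 1170 CPM per kb. The last 3 lay each within the summed SDs of its neighbour, but again kept this order within each oe-NC sample. mt-Atp8 (734), mt-Nd3 (732), mt-Nd6 (707) and mt-Nd4l (675) lay within their spread of each other, and mt-Rnr1 (134) and mt-Rnr2 (89.7) came last. The short genes mt-Atp8 and mt-Nd4l share 43 bases with mt-Atp6 and 7 bases with mt-Nd4. How shared reads were divided is not given, so a low value of a short gene in these orders need not mean less RNA. Nor is it given whether RNA was selected by poly(A), so the places of the rRNAs among the mRNAs need not follow their RNA levels.

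In oe-AQP1 the first 4 places were the same, with mt-Co1 at 6410, mt-Co2 at 4480, mt-Atp6 at 2970 and mt-Co3 at 2730 CPM per kb. mt-Cytb stood at 1590, mt-Nd2 at 1300 and mt-Rnr1 at 1150, above mt-Nd4 (716), mt-Nd5 (675), mt-Nd1 (576), mt-Nd6 (500) and mt-Nd3 (487). mt-Atp8 (287), mt-Nd4l (186) and mt-Rnr2 (108) came last. mt-Nd6 and mt-Nd3 did not differ beyond their spread. By counts per length, mt-Rnr1, below every protein gene in oe-NC, stood above 7 of the 13 protein genes in oe-AQP1. With poly(A) selection not given, these places are of counts and need not be those of RNA in the cells.

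The 22 tRNA genes had next to no counts and none passed the filter. Of them, 20 were listed at 0 in all 6 samples, including all 14 of the forward strand. The 2 with any count lie on the reverse strand, and are named here after their values were seen. mt-Ts1, the tRNA gene that overlaps the end of mt-Co1 on the other strand, had 1, 0 and 1 counts in oe-AQP1 and 1, 1 and 1 in oe-NC. mt-Tp, at the end of the coding part of the chromosome, had 1, 2 and 0 against 0, 1 and 0. No difference between groups was detectable at such counts.

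Most nuclear genes that serve the mitochondrial chromosome did not pass the test. Of 48 genes of mitochondrial transcription and RNA processing tested, 12 were higher, 5 lower and 31 not called, beside 16.0% higher and 16.6% lower among all genes. In both directions the 35.4% called is near the 32.5% of all genes, and the median log2 fold change was 0.10. Pnpt1, a 3′ to 5′ exoribonuclease of mitochondria, had 3737, 4171 and 4062 counts in oe-AQP1 and 1554, 1754 and 2086 in oe-NC. It gave the largest rise of the list and the one past the fold threshold, at 1.08 (SE 0.07, FDR 1.35e-06 by limma-voom).

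Polrmt, the mitochondrial RNA polymerase, had 1132, 1350 and 1276 counts in oe-AQP1 and 1521, 1128 and 1250 in oe-NC. These overlapped, and the log2 fold change of -0.12 (SE 0.09, FDR 0.359) did not pass. Tfam, which packs mitochondrial DNA and opens its promoters, was slightly higher at 0.23 (SE 0.05, FDR 0.00745). Lrpprc, which stabilises mitochondrial mRNAs, was lower at -0.24 (SE 0.04, FDR 6.24e-04), as was Hsd17b10, a subunit of mitochondrial RNase P, at -0.24 (SE 0.05, FDR 0.00249), the largest fall of the list.

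The nuclear subunits of complexes I, III, IV and V moved little beside the mitochondrial ones. Of 78 tested, 1 was higher and 18 were lower, beside 16.0% higher and 16.6% lower among all genes. In both directions 24.4% were called, beside 32.5% of all genes, with a median of -0.09 and none past the fold threshold. Without sample 1 of oe-NC, 56 were called lower (beside 20.7% of all genes in that fit), and with sample quality weights 49 (beside 21.4%). In complex I, 1 of 37 was higher and 10 were lower, from Ndufb1 at 0.34 (SE 0.08, FDR 0.00644) to Ndufb6 at -0.37 (SE 0.08, FDR 0.00671).

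In complex III, 2 of 9 nuclear subunits were lower, with Uqcrc1, a core protein, falling by 0.17 on the log2 scale (FDR 0.0179). In complex IV, 2 of 14 were lower, with Cox5a falling by 0.24 (FDR 0.026). In complex V, 4 of 18 were lower. These shares of 22.2%, 14.3% and 22.2% called stand beside 16.6% of all genes lower. Atp5f1b, the catalytic beta subunit, had 28654, 31920 and 29918 counts in oe-AQP1 and 38984, 35482 and 40924 in oe-NC, and fell by 0.42 (SE 0.03, FDR 1.33e-06 by limma-voom).

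**Figure D5:**
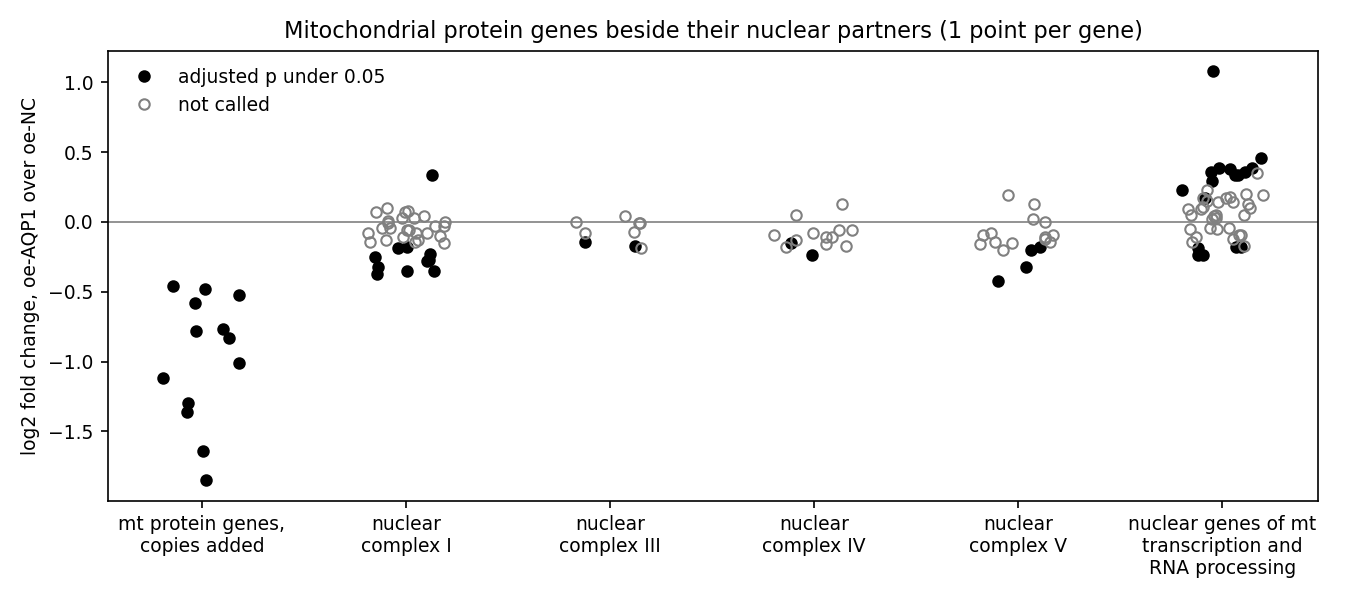
Log2 fold change of oe-AQP1 over oe-NC, 1 point per gene, for the 13 mitochondrial protein genes (copies added), the nuclear subunits of each complex and the nuclear genes of mitochondrial transcription and RNA processing, with filled points for FDR under 0.05. The mitochondrial genes lie between -1.85 and -0.46, relative to all genes and not to mitochondrial mRNA, while no nuclear subunit passed an absolute value of 1 and Pnpt1 stands highest at 1.08.

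For single genes, an exact two-sided permutation test of 3 samples against 3 gave p = 0.1 for every gene whose groups did not overlap, the smallest value that design allows. Among all 15522 genes, 47.3% had groups that did not overlap, and 23.8% were lower in oe-AQP1 without overlap; of the 15 mitochondrial genes as deposited, 12 did not overlap.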

How the data were processed

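RNA of 6 RENCA samples (3 oe-AQP1, 3 oe-NC) was sequenced with paired ends from TruSeq RNA Sample Prep libraries. The deposited values are estimated counts per gene with up to 2 decimals, which the authors did not normalise; how reads shared among genes were divided is not given in the sources used here. The submitters' processing notes name fastp, HISAT2, featureCounts, Subread and the builds GRCm38 and mm10, whereas the methods of the study name GRCm39; 78168 of 78298 gene IDs were found in GENCODE M39, and all 37 mitochondrial genes have the same coordinates in RefSeq GRCm38. Coordinates on chromosome 1 are from GRCm39, and all sequences are from that reference. The 2 deposited columns of group means were not used.

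Counts were rounded, filtered by filterByExpr (15522 genes kept) and scaled by TMM in edgeR 4.0.16 (R 4.3.3), and oe-AQP1 was compared with oe-NC by limma-voom (limma 3.58.1) with Benjamini-Hochberg adjustment over all kept genes. The fold threshold was an absolute log2 fold change of 1. Log2 fold changes are oe-AQP1 minus oe-NC, and CPM are counts per TMM-scaled library size except where all counts are named. Sums and shares over genes got no test. Alternatives were the edgeR quasi-likelihood test, DESeq2 1.42.0, other scalings and filters, quality weights, the replicate number as a block, and each sample left out. The limma-voom, edgeR quasi-likelihood and DESeq2 tests were each tested on simulated data, and the permutation test and the other settings were not.

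Nuclear copies were found by aligning the mitochondrial genes to GENCODE M39 transcripts with BLAST 2.17.0 (at least 90% identity over 100 bases, mean of at least 10 counts). Adding their counts to the matching gene was chosen after seeing the data. All mt- genes were to be named, tRNAs only if kept, with Polrmt, Tfam, Lrpprc, Pnpt1 and the largest rise and fall of each nuclear list. Members and lists were chosen with earlier results of these data known.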

Additional observations from a re-analysis of the deposited data

How the results depend on the processing

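Over the alternatives run on the deposited counts, mt-Rnr1 was higher and the 10 protein genes named as lower were lower, except where mitochondrial mRNA set the scale. On that scale mt-Co1 was at 0.27, mt-Co2 at 0.58, mt-Co3 at 0.87 (SE 0.38, FDR 0.0451 by limma-voom) and mt-Nd6 at 0.31. There mt-Atp6 at 0.05, mt-Nd5 at 0.01 and mt-Nd3 at -0.21 did not pass, since the sum itself fell. That fit leaves out the copies, which held most counts of mt-Co2, mt-Co3, mt-Atp6 and mt-Nd3. Relative to all genes with copies added, mt-Co3 was at -0.83, beside a log2 ratio of -0.73 for the mitochondrial mRNA share. Mitochondrial genes higher numbered 1 with the fold threshold, 1 at FDR under 0.01, and 1 to 2 with each sample left out (1 without sample 3 of oe-AQP1, also with copies added). Genes lower numbered 7 with the fold threshold, 9 at FDR under 0.01, 10 to 11 in the other fits of the deposited counts relative to all genes, and 13 in every fit with copies added. mt-Co3 was at -0.33 without sample 3 of oe-AQP1, at -0.31 without sample 3 of oe-NC (-0.33 to 0.54 over all samples left out) and at -0.83 with copies added, with or without the replicate block. mt-Atp6 passed with edgeR (-0.82, FDR 0.025), with quality weights (-1.04), and with no filter (-0.75). mt-Co2 passed without sample 2 of oe-AQP1 (-0.44). The cause was not tested.

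The replicate numbers did not pair the samples: deviations of same-numbered samples correlated at -0.068 to 0.009. With the replicate block, 2 mitochondrial genes were higher and 11 lower, as mt-Atp6 passed (-0.75, FDR 0.0147).

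RNA processing genes lower numbered 8 with quality weights, 3 with library totals alone, and 3 to 8 with each sample left out (8 without sample 1 of oe-NC, 3 without any one oe-AQP1 sample). Nuclear subunits lower numbered 49 with quality weights and 12 to 56 with each sample left out (56 without sample 1 of oe-NC). As log2 ratios of oe-AQP1 over oe-NC, with copies added and with counts per length, rRNA per mRNA was 2.98 and 3.33, mt-Rnr2 per mRNA 1.01 and 1.11, the complex I share -0.31 and -0.22, complex III -0.56 and -0.47, and complex IV 0.21 and 0.35.

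The 3 samples a group, the sharing of reads with chromosome 1, and the unknown strand and poly(A) steps limit these values. The tRNA counts were too low to test.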
